A study of Homo sapiens with 12 samples.

Results

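Genes for glycoproteins of the extracellular matrix were examined in HT1080, an established human fibrosarcoma cell line. The members were named beforehand as 10 symbols: FN1, FBN1, FBN2, FSTL1, SPARC, THBS1, THBS2, TNC, POSTN and LOX. All 10 were among the 36502 genes of the deposited count table, and 9 of them, all but POSTN, were among the 17262 genes with enough counts to be tested. The 12 libraries came from 6 groups of 2, formed by 2 clones in 3 conditions. Both clones carry a Dam-LaminB1 fusion, a bacterial adenine methyltransferase tied to lamin B1, and a tracer protein that binds the methylated DNA. In the GFP clone the tracer is the m6A-Tracer, and in the VP16 clone it is the same tracer joined to the VP16 activation domain. Uninduced cells received 50 ng/ml doxycycline for 4 days. Tracer cells received it for 3 days and then none for 24 h, which switches the tracer on. Tracer-with-Dam cells had the same schedule with 500 nM Shield1 during the last 24 h, which stabilises Dam-LaminB1. Doxycycline was therefore withdrawn in every induced group, and its removal cannot be told apart from expression of the tracer. Shield1 was given to the tracer-with-Dam groups only. An effect of Shield1 itself cannot be told apart from that of Dam-LaminB1, and changes named after Dam-LaminB1 below include both. Each tracer was present in 1 clone, so clone and construct cannot be told apart either. The series' design text calls the libraries of a group biological replicates and does not say whether they came from separate cultures. P-values therefore set each difference against the variation among these libraries, and part of that variation may be technical. In bulk RNA, a smaller share of cells that express a gene and less RNA per cell cannot be told apart.

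Fibronectin, the product of FN1, is assembled by integrins into fibrils on which other matrix proteins are laid down. The fibrillins FBN1 and FBN2 form microfibrils that carry elastin and hold latent TGF-beta, and LOX, a lysyl oxidase, cross-links collagen and elastin. SPARC, FSTL1, THBS1, THBS2, TNC and POSTN are mostly matricellular proteins, which are secreted into the matrix and act on cell adhesion and growth factor signalling more than on its mechanics. Cells of mesenchymal origin, fibrosarcoma cells among them, are a usual source of these proteins.

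Libraries held 18774905 to 24827396 counts. Titles showed that 6 index sequences had each been used in 2 libraries, which splits the libraries into index sets 1 and 2 with 1 library of each group in each. Both GFP libraries of index set 1 that were induced, the tracer one and the tracer-with-Dam one, stood apart from the other 10. Summed over 9 targets of the integrated stress response they held 1981 and 1949.9 CPM (counts scaled to library size after TMM), against 379.6 to 608.2 in the others. Members that changed direction or gained or lost a call without them are given both ways, here or among the effects of processing. Of 11 mesenchymal markers, the member FN1 among them, 9 had a median of at least 1 CPM. VIM was at 1745 to 4206 CPM, CD44 at 999.6 to 1223 and CDH2 at 67.7 to 108. S100A4 was lower, at 10.2 to 13.8, as was PDGFRB, at 5.43 to 17.0. DCN and LUM, also mesenchymal, and the endothelial PECAM1 were on the lists but were not found by symbol. Of the fibroblast collagens, COL1A1 was at 9.67 to 22.3 CPM, while COL1A2 and COL3A1 stayed at or under 0.217 and 0.295. Of 7 epithelial markers, KRT8, KRT18 and CLDN4 had a median of at least 1 CPM, and the list summed to 167 to 329 CPM, while CDH1 was at 0 to 0.651 and EPCAM at 0 to 0.245. None of 5 blood markers and none of 3 endothelial markers had a median of 1 CPM, and PTPRC and HBB had a median of 0. Of 4 muscle and 4 neural markers, 3 each had such a median, with sums of 5.61 to 30.2 and 5.97 to 14.0 CPM.

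The stretches before the start sites of 3 members are shown because these genes carry the results: FBN1 and FBN2 differed between the clones in opposite directions, and FN1 varied most between index sets among the well-expressed members. All 10 members matched RefSeq promoters on GRCh38.p14, which run from 250 bases before the start site to 50 after it. The printed parts are minus strand, 5' to 3', and lie outside annotated exons: chr15:48644971-48645170 for FBN1, chr5:128538246-128538445 for FBN2 and chr2:215436173-215436252 for FN1. Capitals mark a match to the TEAD motif GGAATG in FBN1, to the E-box CACGTG in FBN2 and to the cAMP response element TGACGTCA in FN1.
FBN1: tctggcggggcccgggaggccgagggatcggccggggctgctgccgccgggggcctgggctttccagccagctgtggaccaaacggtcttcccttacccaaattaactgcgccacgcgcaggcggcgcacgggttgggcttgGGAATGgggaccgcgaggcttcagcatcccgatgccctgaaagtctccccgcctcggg
FBN2: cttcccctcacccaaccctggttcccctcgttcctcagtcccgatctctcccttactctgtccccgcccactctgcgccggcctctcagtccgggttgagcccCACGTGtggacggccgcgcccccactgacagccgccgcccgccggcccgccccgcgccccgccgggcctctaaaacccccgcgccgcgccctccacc
FN1: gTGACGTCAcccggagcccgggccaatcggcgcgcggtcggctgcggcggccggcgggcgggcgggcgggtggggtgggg
All were rich in G and C: over the 250 bases before the start the share was 69.6% for FBN1, 72.8% for FBN2 and 76.4% for FN1, against a median of 58.0% over 35116 promoters.

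These motifs, the AP-1 motif TGANTCA and the TATA box TATAA were searched on both strands of every window. The TEAD motif was in the window of 4 members, FBN1, SPARC, THBS1 and THBS2, and in 14.0% of all promoters. It lay at position -58 from the start site in FBN1 and at -46 in THBS1, and THBS2 held it on both strands, at -91 and -103. The THBS2 pair is shown because its matches lie close together in opposite orientation (chr6:169253897-169253989, minus strand).
THBS2: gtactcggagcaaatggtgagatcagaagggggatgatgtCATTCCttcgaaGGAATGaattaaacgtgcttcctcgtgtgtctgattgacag
The E-box of FBN2 lay at -97 and was found in 7.26% of promoters, and the cAMP response element of FN1 at -183 in 1.85%. FN1, THBS2, TNC and POSTN held TATAA, as did 20.4% of promoters, and POSTN alone among the members held TGANTCA, found in 7.71%. These matches describe the letters and say nothing of binding.

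Per kilobase of exon, the members covered a wide range. SPARC had the highest median over the 12 libraries, 149 CPM per kb, followed by FN1 at 92.9. TNC (25.6), THBS2 (19.8), LOX (16.9) and THBS1 (15.1) formed a middle group, and FSTL1 (8.94) and FBN1 (7.74) lay below it. FBN2 had a median of 0.0911 CPM per kb. POSTN, the gene of periostin, had 10 counts over all libraries, at most 2 in any and 0 in 5. A floor of 3 counts corresponds to 0.119 to 0.163 CPM in these libraries, so POSTN was not detectable above that level and was not compared. The library values of the other 9 are plotted by clone, condition and index set.

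**Figure D1:**
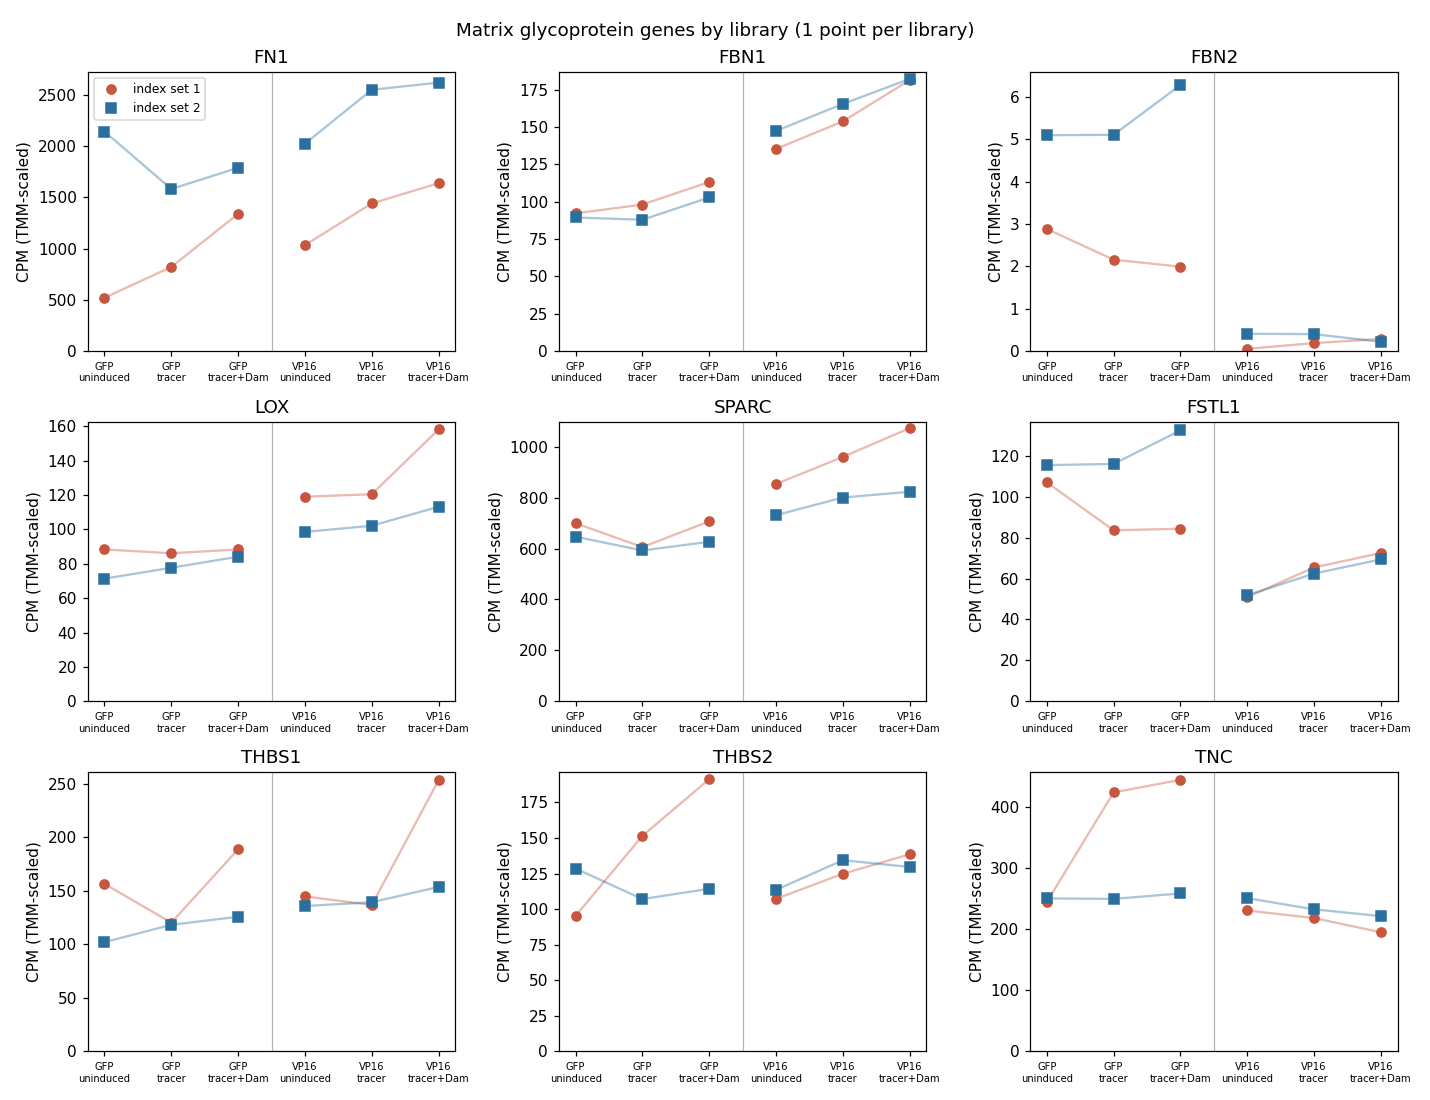
Level of each of the 9 tested members in the 12 libraries, in CPM after TMM scaling on a linear axis from 0. Circles are index set 1 and squares index set 2, lines join the conditions of 1 clone within a set, and the vertical line divides the GFP clone (left) from the VP16 clone (right). FBN1, LOX and SPARC were higher in all 6 VP16 libraries and FBN2 and FSTL1 lower, while FN1 was higher in set 2 in every group.

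The clones differed in 5 of the 9 members. FBN1, SPARC and LOX were higher in the VP16 clone by 1.65, 1.35 and 1.43 times, and FBN2 and FSTL1 were lower by 14.6 and 1.73 times, averaged over the 3 conditions. Among all genes tested, 1318 differed, or 7.64%, with 2.62% higher and 5.01% lower in VP16 cells. A fit blocked by index set gave the same 5 members, against 3609 genes or 20.9%. The members' median difference was 0.23 on the log2 scale, and that of all genes was 0.0016.

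FBN1, the main fibrillin of connective tissue (GRCh37 chromosome 15, 48700503 to 48938046), had the smallest SE of the members. In the GFP clone it stood at 92.2 and 89.5 CPM uninduced, at 98.1 and 87.9 with the tracer, and at 113 and 103 with Dam-LaminB1 (set 1 first here and below). In the VP16 clone it stood at 135 and 147, 154 and 166, and 181 and 182. The highest GFP library lay below the lowest VP16 library, and the index sets of a group lay close together. The log2 difference was 0.72 ± 0.07 (SE, edgeR adjusted p = 7.5e-04) and held in 12 of 12 fits without 1 library, at 0.70 to 0.75.

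FBN2 makes the fibrillin that is prominent in fetal microfibrils (chromosome 5, 127593601 to 127994878). It was low in the GFP clone and lower still in the VP16 clone. The GFP libraries held 2.88 and 5.10 CPM uninduced, 2.16 and 5.11 with the tracer, and 1.99 and 6.28 with Dam-LaminB1. The VP16 libraries held 0.0543 and 0.410, 0.189 and 0.400, and 0.289 and 0.221 CPM. No VP16 library came near the lowest GFP library. In counts this was 545 in the GFP clone and 35 in the VP16 clone, a ratio of 14.8 after scaling by library size, with a counting interval of 10.5 to 21.4 (95%, exact binomial, counting error only). The fitted log2 difference was -3.86 ± 0.50 (SE, edgeR adjusted p = 0.0037). Without 1 library it ran from -3.51 to -4.55, the last of these without the uninduced VP16 library of set 2.

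The fibrillins thus moved in opposite directions between the clones, and all 6 libraries of each clone were on the same side for both genes. Genes with no overlap between the clones made up 4.59% of those tested for higher and 6.08% for lower in the VP16 clone. The genes around them were read for comparison. Of 16 tested genes within 1 Mb of FBN1, 0 differed between the clones, and with the block 1 did, SEMA6D (edgeR adjusted p = 0.021). Of 7 around FBN2, 2 differed without the block, both lower: SLC27A6, a fatty acid transporter, at -3.56 (edgeR adjusted p = 0.010), and MEGF10, an engulfment receptor, at -1.68 (adjusted p = 0.042). With the block SLC12A2, a sodium, potassium and chloride transporter, was called as well, on the higher side (edgeR adjusted p = 0.0065). SLC27A6 overlaps FBN2 in position and had at most 43 counts in a library. Whether counting used the strand is not given in the sources used here, so their reads may not be fully separated.

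LOX, which cross-links the fibres that fibrillins support, moved like FBN1. Its GFP libraries held 88.4 and 71.4 CPM uninduced, 86.2 and 77.7 with the tracer, and 88.4 and 84.2 with Dam-LaminB1. Its VP16 libraries held 119 and 98.6, 120.5 and 102, and 158 and 113 CPM. The clones did not overlap. The log2 difference was 0.51 ± 0.11 (SE, edgeR adjusted p = 0.028). Without the block the call was lost in 8 of 12 fits that left out 1 library (adjusted p up to 0.088): each VP16 library but the Dam-LaminB1 one of set 2, GFP uninduced of set 2, and either GFP tracer library. With the block it was lost in 0 of 12. SRFBP1 overlaps LOX and had up to 651 counts in a library, so some of its reads may be shared.

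SPARC, also called osteonectin, binds collagen and is abundant in remodelling matrix. In the GFP clone it was at 699 and 647 CPM uninduced, 606 and 593 with the tracer, and 707 and 627 with Dam-LaminB1. In the VP16 clone it was at 854 and 731, 960.1 and 801, and 1073 and 823. The lowest VP16 library was above the highest GFP library. The log2 difference was 0.43 ± 0.09 (SE, edgeR adjusted p = 0.027). It lost its call in 7 of 12 fits without 1 library (adjusted p up to 0.086): either uninduced library of either clone, the set 1 libraries of both tracer groups, or the VP16 Dam-LaminB1 library of set 1. With the block it was lost in 0 of 12.

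FSTL1, a secreted relative of SPARC that binds BMPs, differed in the other direction. Its GFP libraries held 107 and 115 CPM uninduced, 83.6 and 116 with the tracer, and 84.4 and 132 with Dam-LaminB1. Its VP16 libraries held 51.0 and 51.9, 65.5 and 62.5, and 72.5 and 69.4 CPM. The clones did not overlap, and the closest approach was between the set 1 GFP tracer library and the set 1 VP16 library with Dam-LaminB1. The log2 difference was -0.79 ± 0.13 (SE, edgeR adjusted p = 0.0086). The calls of FSTL1 and FBN2 held in all 12 fits without 1 library, with and without the block.

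The 4 members left did not pass between the clones. FN1 differed by 0.46 ± 0.37 (SE, log2), THBS1 by 0.23 ± 0.16, THBS2 by -0.07 ± 0.15 and TNC by -0.46 ± 0.16, with edgeR adjusted p of 0.50, 0.43, 0.82 and 0.13. For FN1 the spread was that between index sets, and with the block its difference was 0.50 ± 0.18 (edgeR adjusted p = 0.089). These values do not show that the clones were alike, and the SE of FN1 was close to the whole difference of SPARC. Without both induced GFP libraries of set 1, TNC differed by -0.18 ± 0.06 and FN1 by 0.25 ± 0.44 (SE, edgeR adjusted p = 0.12 and 0.77). Leaving out 1 library gave calls in 5 fits. TNC passed without the set 2 tracer library or the set 2 Dam-LaminB1 library of the GFP clone (-0.56 and -0.57, edgeR adjusted p = 0.046 and 0.032), and in the same fits with the block (adjusted p = 0.032 and 0.019), and FN1 passed in the blocked fit without the uninduced GFP library of set 2 (0.75, adjusted p = 0.0043).

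**Figure D2:**
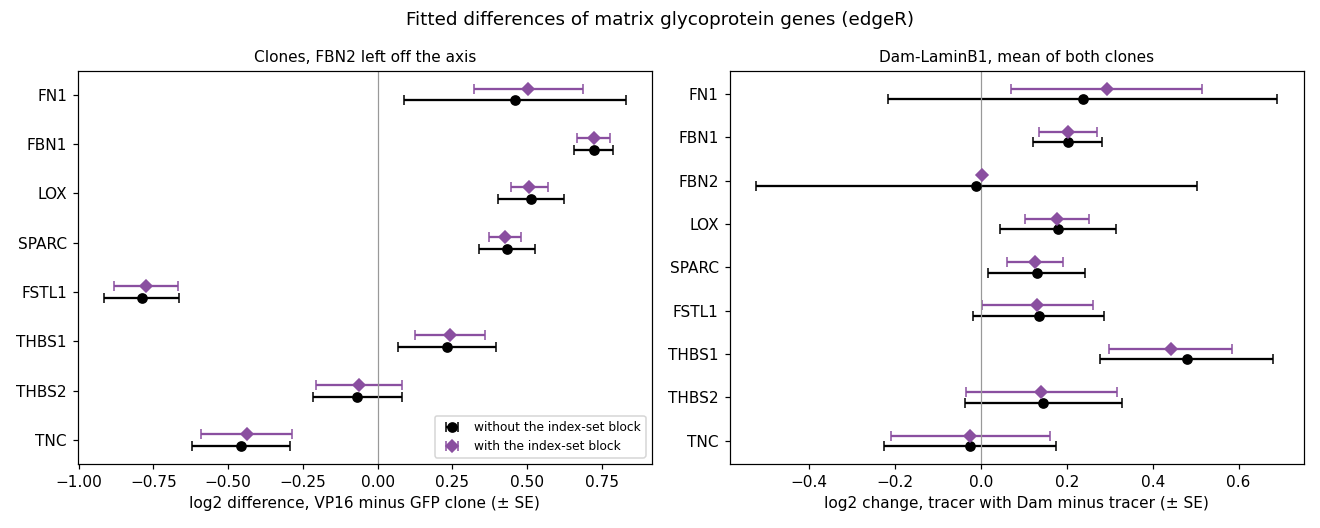
Fitted log2 differences with their standard errors from edgeR, without (black) and with (purple) the index set as a block. The left panel gives the VP16 clone minus the GFP clone over the 3 conditions, with FBN2 left out for scale at -3.86. The right panel gives tracer with Dam-LaminB1 minus tracer, the mean of both clones, with no blocked error for FBN2 because its change was near 0. FBN1, LOX and SPARC lie above 0 on the left and FSTL1 below, and on the right no member passed after adjustment.

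Other matrix genes were counted by function, from lists that do not include the members. Of all genes tested, 2.62% were higher and 5.01% lower in the VP16 clone, and 9.03% and 11.9% with the block. Among 13 tested microfibril and elastic fibre genes, 1 was higher in the VP16 clone and 2 were lower. EFEMP1, a fibulin, differed by 0.34, EFEMP2, which brings LOX to elastin, by -0.47, and FBLN2, another fibulin, by -3.27 on the log2 scale. FBLN2 ranged from 4.13 to 17.4 CPM in the GFP clone and from 0.133 to 1.94 in the VP16 clone. Among 18 cross-linking and processing enzymes, 0 were higher and 2 lower, FURIN, a proprotein convertase, and PCOLCE, which enhances procollagen processing. Of 15 basement membrane genes, 3 were higher and 0 lower. Among them were NID2 (log2 difference 1.57) and LAMA4 (0.57), with NID2 at 5.99 to 9.48 CPM in the GFP clone and 18.4 to 32.1 in the VP16 clone. Of the 8 tested relatives of the thrombospondins, tenascins and SPARC and the 5 CCN genes, 0 passed. With the block the counts higher and lower were 1 and 3 for the microfibril genes, 4 and 4 for the enzymes, 5 and 2 for the basement membrane and 1 and 1 for the relatives.

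Receptors and the TGF-beta pathway also held a few of the differences. Among 13 tested receptors of these matrix proteins, SDC2, a heparan sulfate proteoglycan, differed by -2.62 on the log2 scale, with 11.1 to 21.8 CPM in the GFP clone and 1.41 to 3.73 in the VP16 clone. CD47, a receptor of thrombospondin 1, differed by -0.44, and ITGB8, an integrin chain that activates latent TGF-beta, by 1.41. Of 16 TGF-beta genes, the receptor genes TGFBR1 and TGFBR3 were higher, by 0.47 and 0.74, and 0 were lower. With the block the counts higher and lower were 2 and 3 for the receptors and 3 and 0 for the TGF-beta genes. The shares of all genes given above, with and without the block, stand beside these counts too. The median of each list is its own description: 0.03 for the TGF-beta genes, -0.11 for the receptors and -0.19 for the microfibril genes, against 0.0016 for all genes tested.

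Switching on the tracer gave no call for any member in either clone, where 0 of 17262 genes passed (0%). At an unadjusted p under 0.05, edgeR gave 125 genes (0.724%) in the GFP clone and 72 (0.417%) in the VP16 clone. Blocked fits gave 385 (2.23%) and 217 (1.26%), and also 0 genes after adjustment. The members' changes in the GFP clone ran from -0.17 (SPARC, ± 0.16 SE) to 0.44 (TNC, ± 0.28), on the log2 scale. In the VP16 clone they ran from -0.10 (TNC, ± 0.28) to 0.38 (FN1, ± 0.64). Blocking by index set or using DESeq2 added no member. In 0 of 9 members was the tracer library above its uninduced partner in all 4 pairs, a pattern held by 6.24% of genes. The TNC value of the GFP clone came from index set 1, and without both induced GFP libraries of that set it was 0.020 ± 0.12 (SE, edgeR adjusted p = 1.00).

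Stabilising Dam-LaminB1 on top of the tracer also gave 0 calls in each clone (0% of genes), with and without the block. An unadjusted p under 0.05 (edgeR) was reached by 80 genes (0.463%) in the GFP clone and 53 (0.307%) in the VP16 clone. Blocked fits gave 215 (1.25%) and 195 (1.13%). For 6 of the 9 members, however, the library with Dam-LaminB1 was above the tracer library of the same clone and index set in 4 of 4 pairs. These were FN1, FBN1, FSTL1, SPARC, THBS1 and LOX. That pattern was found in 9.99% of all genes tested, and the opposite pattern, found in 9.76%, in 0 members. Each pair has its own 2 libraries, but the 6 genes were measured in the same ones. A rise was not particular to the members. The mean change over both clones was above 0 in 7 of 9 members, 14 of 15 basement membrane genes and 7 of 8 relatives. The same held for 14 of 18 enzymes, 12 of 16 TGF-beta genes, 9 of 13 microfibril genes, 8 of 13 receptors and 3 of 5 CCN genes. How many genes of these lists rose in all 4 pairs was not counted.

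In FBN1 the 4 changes were alike: 0.21 and 0.23 in the GFP clone and 0.24 and 0.14 in the VP16 clone (log2 CPM). The mean over both clones was 0.20 ± 0.08 (SE, edgeR adjusted p = 1.00). THBS1, which activates latent TGF-beta and inhibits blood vessel growth, had the largest mean change of the members, 0.48 ± 0.20 (SE, edgeR adjusted p = 1.00). Its tracer libraries held 120.3 and 118 CPM in the GFP clone and 137 and 139 in the VP16 clone. Its Dam-LaminB1 libraries held 189 and 126, and 253 and 154. Set 1 carried most of it, with changes of 0.65 and 0.89 against 0.09 and 0.14 in set 2. SPARC changed by 0.13 ± 0.11, LOX by 0.18 ± 0.14 and FN1 by 0.24 ± 0.45 (SE), none of which passed. Blocked by index set, THBS1 changed by 0.44 ± 0.14, FBN1 by 0.20 ± 0.07 and SPARC by 0.13 ± 0.07 (SE). LOX then changed by 0.18 ± 0.07 and FN1 by 0.29 ± 0.22, and no member passed. The comparison over both clones was added after the data had been seen.

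**Figure D3:**
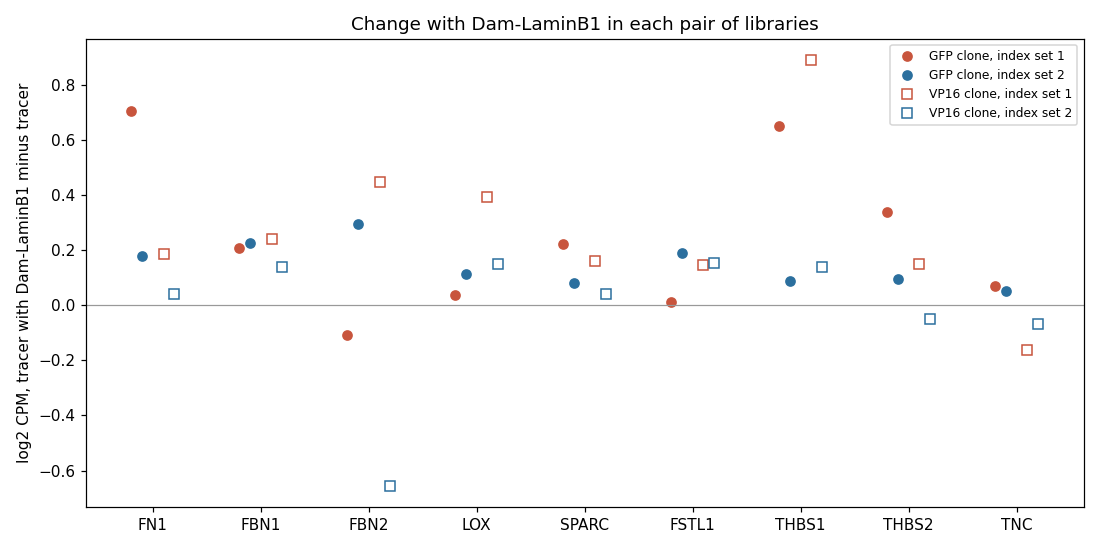
Change with Dam-LaminB1 in each of the 4 pairs of libraries that share clone and index set, as the log2 CPM difference from the tracer library. Filled circles are the GFP clone, open squares the VP16 clone, red index set 1 and blue index set 2. FN1, FBN1, LOX, SPARC, FSTL1 and THBS1 have all 4 points above 0, with the highest at 0.89 in THBS1.

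The VP16 clone was also read over its 3 conditions. In both index sets, FN1, FBN1, FSTL1, SPARC and LOX were ordered from uninduced over tracer to tracer with Dam-LaminB1, lowest first. The same held for 7.77% of genes tested. These 5 members are among the 6 with Dam-LaminB1 above tracer in 4 of 4 pairs, so the last step of the order repeats that pattern. The 7.77% is a share of all genes tested and not of those with that pattern. In the GFP clone 0 of 9 members had that order, against 4.00% of genes. FBN1 went from 135 to 154 to 181 CPM in set 1 and from 147 to 166 to 182 in set 2. From uninduced to Dam-LaminB1 it differed by 0.36 ± 0.11 and FSTL1 by 0.46 ± 0.22 (SE, edgeR adjusted p = 1.00 for both). As 0 genes passed in this comparison (0%), with or without the block, the order is given as a description. An unadjusted p under 0.05 (edgeR) was reached by 189 genes (1.09%), and by 623 (3.61%) under the block. The difference between clones in response to the tracer or to Dam-LaminB1 gave 0 genes as well. There 94 (0.545%) and 50 (0.290%) had an unadjusted p under 0.05 (edgeR), and 247 (1.43%) and 122 (0.707%) under the block.

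More genes were called between the index sets than between conditions, but these comparisons differed in precision. The median SE over all genes tested was 0.124 for the index sets and 0.295 for the tracer in the GFP clone without the block. The counts of calls therefore do not rank the sizes of the differences. Fitted together with the groups, 4 of the 9 members passed, 2 in each direction, against 28.2% of all genes (12.6% higher and 15.6% lower in set 2). With so many genes called, the members are given here as values and not as a property of this family. FN1 was 1.96 times and FBN2 2.24 times higher in set 2, and SPARC and LOX were lower by 1.15 and 1.19 times. The labels give no date or batch for the sets, and what separated them was not tested.

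FN1 (chromosome 2, 216225163 to 216300895) showed the difference in every group. In the GFP clone its libraries held 520.1 and 2142 CPM uninduced, 820.7 and 1581 with the tracer, and 1338 and 1788 with Dam-LaminB1. In the VP16 clone they held 1034 and 2023, 1440.5 and 2549, and 1638 and 2619. The set 2 library was the higher in 6 of 6 groups, by 1.34 to 4.12 times, a pattern found in 16.5% of genes. The sets overlapped, however, since 1 VP16 library of set 1 was above the lowest set 2 library. No member kept the sets fully apart, against 7.22% of genes with set 2 above and 7.35% with set 2 below. Within set 1 the uninduced library was the lowest and the Dam-LaminB1 library the highest in both clones, while within set 2 of the GFP clone the uninduced library was the highest.

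The fitted set difference of FN1 was 0.97 ± 0.19 (SE, log2, edgeR adjusted p = 0.0078). Without both induced GFP libraries of set 1 it was 1.13 with an adjusted p of 0.071. FBN2 differed by 1.17 ± 0.24 (edgeR adjusted p = 0.011) and was higher in set 2 in 5 of 6 groups. SPARC differed by -0.20 ± 0.05 and LOX by -0.25 ± 0.06 (adjusted p = 0.029 and 0.019), and both were lower in set 2 in 6 of 6 groups, as were 17.8% of genes. The calls of SPARC and LOX were lost in 10 and 8 of 12 fits without 1 library. SPARC held only without either GFP tracer library, and LOX only without one of the 4 induced GFP libraries. FBN1 differed by -0.02 ± 0.06 (SE), the smallest value among the members.

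**Figure D4:**
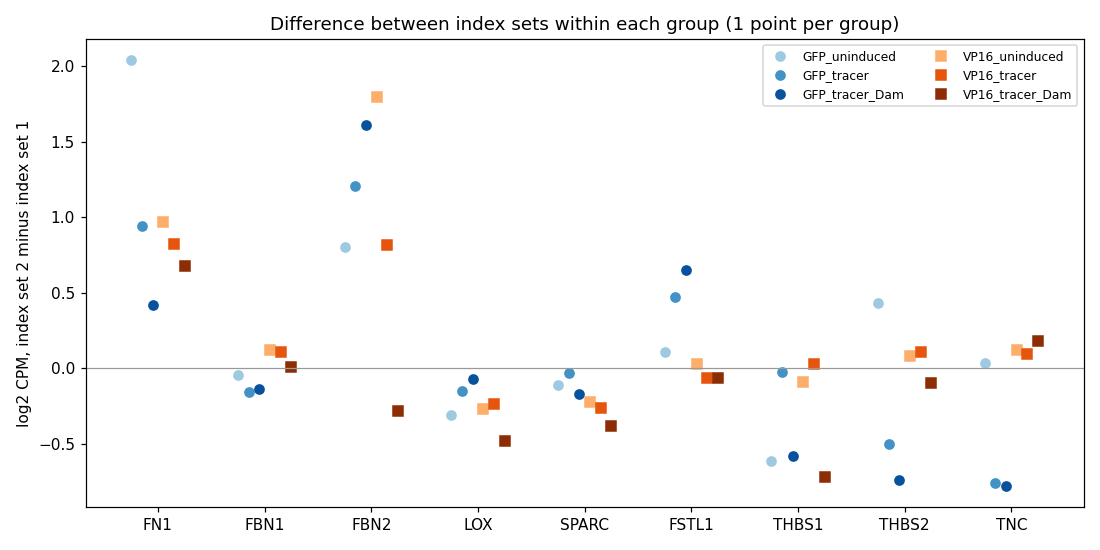
Difference between index sets within each of the 6 groups, as log2 CPM of the set 2 library minus that of the set 1 library, 1 point per group. Circles in blue are the GFP clone and squares in orange the VP16 clone, darker from uninduced to tracer to tracer with Dam-LaminB1. All 6 points are above 0 in FN1 and below 0 in LOX and SPARC, and in TNC the 2 induced GFP groups lie apart from the other 4.

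TNC, an adhesion-modulating hexamer that is rare in most resting adult tissue, and THBS2, a collagen-binding thrombospondin, followed another pattern. TNC held 244 and 250.4 CPM in uninduced GFP cells, 424 and 249.6 with the tracer, and 444 and 259 with Dam-LaminB1. In the VP16 clone it held 231 and 251, 218 and 232, and 195 and 222. Only the induced GFP libraries of set 1 were above 259 CPM. They are also the ones with the high stress targets, where the 9 genes summed to 1981 and 1949.9 CPM, and the part of this in the TNC values was not tested. Without them the set difference of TNC went from -0.18 ± 0.15 (SE, edgeR adjusted p = 0.39) to 0.11 ± 0.04 (adjusted p = 0.020).

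THBS2 was at 151 and 191 CPM in the same libraries, its highest values. It was at 95.3 and 128.5 in uninduced GFP cells and at 107 and 114 in the set 2 libraries of the induced ones. The VP16 libraries held 107 and 114, 125 and 134, and 139 and 129.6 CPM. THBS2 thus overlapped between clones, sets and conditions. THBS1 differed between sets by -0.34 ± 0.12 (SE, log2), with an edgeR adjusted p of 0.065 and a DESeq2 adjusted p of 0.045. FSTL1 differed between sets by 0.19 ± 0.11 (edgeR adjusted p = 0.21).

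The related lists held calls between the sets in both directions, beside 12.6% of all genes higher and 15.6% lower in set 2. The counts higher and lower were 1 and 3 of 13 receptors, 1 and 2 of 13 microfibril genes, 0 and 1 of 8 relatives, and 2 and 2 of 16 TGF-beta genes. Of 15 basement membrane genes, 2 were higher in set 2 and 6 lower, with LAMC3 at -3.49 and LAMA2 at -1.22 (log2), both laminin chains, and NID1 at 0.68. Of the CCN genes, which like the thrombospondins act in the matrix as signals, 0 of 5 were higher and 2 lower, NOV at -0.90 and CYR61 at -0.62. Of 18 cross-linking enzymes, 2 were higher and 4 lower, among them TGM2, a transglutaminase that cross-links fibronectin, at -0.38. In the TGF-beta list TGFB2, a ligand, differed by -0.49, while SMAD3 and SMAD4 were higher. ITGA5, the chain of the main fibronectin receptor, differed by -0.45, and ITGA4, which also binds fibronectin, by 0.68. The integrated stress list had 0 calls of 9 in either direction, in this comparison and between the clones.

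Among all tested genes with a mean of at least 5 CPM, those whose log2 CPM was most like each member over the 12 libraries were listed by Pearson's r, as a description. FN1 was closest to ADAM19 (r = 0.978), FBN1 to CSGALNACT1 (0.975), FBN2 to CYFIP1 (0.988) and FSTL1 to TNS3 (0.987). SPARC was closest to CREB3L1 (0.982) and LOX to LEPRE1 (0.968), a collagen prolyl hydroxylase. THBS2 was closest to BHLHE40 (0.983), TNC to ZNF655 (0.989) and THBS1, with the lowest value, to BRPF3 (0.915). Between members r was 0.947 for SPARC and LOX, 0.927 for FBN2 and FSTL1, and -0.872 for FBN1 and FBN2. The points share clones, index sets and libraries.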

How the data were processed

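RNA from 12 libraries of HT1080 cells was measured. Per the labels' protocols, Trizol was used for total RNA and Illumina TruSeq for the libraries. The authors deposited whole-number read counts for each Ensembl gene, with no scaling. TopHat 1.4.0 and Bowtie 0.12.7 mapped the reads to GRCh37, and HTSeq did the counting, all per the submitters' processing notes. Strand use by HTSeq is not given in the sources used here, and overlapping genes are uncertain. No annotation was attached to 59 of 36502 genes.

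After filterByExpr, 17262 genes remained and were scaled by TMM. In edgeR 4.0.16 (R 4.3.3), a quasi-likelihood fit of all libraries used 1 mean per group and had 6 residual degrees of freedom. Benjamini-Hochberg adjustment ran over every gene tested, at 0.05. There were 11 comparisons, 3 of them added after the data had been seen. The index-set comparison included the groups. Each SE is the absolute log2 change divided by the root of F. For log2 CPM the prior count was 2. Exonic lengths came from GENCODE v29, and promoters from RefSeq.

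Groups were taken from the labels, and index sets from index sequences that recur in the titles. As a check of pairing, residuals around the group means were correlated between libraries of 1 set: r was 0.41 to 0.86 in all 15 group pairs. Libraries were therefore paired by set, which the block takes up. The main fit had no block, except in the index-set comparison. Its SEs, p-values and counts, given without naming the block, thus ignore the pairing. Blocked fits are reported beside the results whose calls they alter, and for some SEs and counts. Replicates were no duplicates (chi-square per degree of freedom 20.4 to 136.5). Alternatives were the block, RLE factors, DESeq2 1.42.0, no filter, leaving out each library (with the block, added later) and leaving out both induced GFP libraries of index set 1. Scripts were tested on simulated data.

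All 10 members are named, with up to 3 genes per list by smallest p and any list gene called, and the closest genes by Pearson's r, except that 2 list genes are not reported here. The members and lists were chosen with earlier results of these data known.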

Additional observations from a re-analysis of the deposited data

Results flagged for a closer look

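Members were flagged when both pairs of libraries rose in a clone and both fell in the other, or when the clones' difference passed. The opposite directions below therefore come from the rule, and their share among all genes was not counted. SPARC met the rule for the tracer, and its set 1 GFP tracer library is among those with high stress targets. Both GFP libraries with the tracer were below their uninduced partners of the same index set, and both VP16 libraries were above theirs. The difference in response, VP16 minus GFP, was 0.32 ± 0.23 on the log2 scale (SE, edgeR adjusted p = 1.00), and blocking by index set gave 0.31 ± 0.13 (adjusted p = 0.99).

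TNC met the rule for Dam-LaminB1, higher than the tracer library in both GFP pairs and lower in both VP16 pairs. Its set 1 GFP pair holds both libraries with high stress targets. The difference was -0.18 ± 0.40 (SE, edgeR adjusted p = 1.00). Neither difference passed the test.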

How the results depend on the processing

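Of 166 member fold changes recomputed with RLE factors, DESeq2, no filter, the replicate block, or without both induced GFP libraries of index set 1, 156 kept their direction and call. Between the clones DESeq2 called 2201 genes and the replicate block 3609, against 1318. With 1 library left out, blocked fits included, 3 to 6 members and 543 to 5482 genes were called between the clones, and 2 to 4 members between index sets. In the GFP clone, 0 to 1 gene was then called for the tracer and for Dam-LaminB1. With no filter TNC also passed between the clones (-0.45, edgeR adjusted p = 0.030), and SPARC no longer did between index sets (adjusted p = 0.059), where DESeq2 added THBS1 (adjusted p = 0.045). Without both induced GFP libraries of index set 1, FN1 was no longer called between index sets (1.13, edgeR adjusted p = 0.071).

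None of the values that reversed had passed the test as reported. Leaving out the same pair of libraries turned THBS2 to 0.15 between the clones and FBN2 to 0.044 for Dam-LaminB1 over both clones (0.0016 under the block). Between index sets it turned FBN1 to 0.055, THBS2 to 0.14 and TNC to 0.11, and TNC then passed (edgeR adjusted p = 0.020). Without 1 library, blocked or not, THBS2 ran from -0.18 to 0.064 between the clones, and between index sets FBN1 ran from -0.043 to 0.026 and THBS2 from -0.21 to 0.020. For Dam-LaminB1 over both clones, FBN2 ran from -0.55 to 0.44, FSTL1 from -0.060 to 0.28, THBS2 from -0.061 to 0.30 and TNC from -0.24 to 0.18. For the tracer in the VP16 clone, FN1 ran from -0.082 to 0.95 and TNC from -0.27 to 0.087, and the clones' difference in the TNC response to Dam-LaminB1 from -0.60 to 0.24. The cause was not tested. A lone library left in a group is assumed to vary like the others. Depth limits FBN2 in the VP16 clone and POSTN.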
